A study of Mus musculus with 2 samples.

Results

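The 8 genes described here make, modify or export cholesterol: Hmgcs1, Idi1, Sqle and Cyp51 encode synthesis enzymes, Insig1 a sterol sensor, Ch25h an oxysterol-forming enzyme, and Abca1 and Abcg1 efflux transporters. They were taken by name from the 31053 genes of the count matrix and followed in every cell that had 200 or more genes and no more than 20% mitochondrial counts. None of the 8 is an uptake receptor, so uptake genes are given from a longer list of the pathway. Cells came from the cribriform plate, the perforated bone above the nose, of 10-week-old female wild-type C57BL/6J mice, dissected with the olfactory bulbs and some nasal mucosa. One group was healthy and the other had autoimmune encephalomyelitis (EAE), a mouse model of multiple sclerosis. Each group was a pool of 5 mice and counts as 1 sample. The sort aimed at lymphatic endothelium, as live CD45-negative cells that carried podoplanin and CD31. The barcodes carry suffix 1 or 2, 1 for each library, but neither labels nor files tie a suffix to healthy or EAE mice. Values are therefore given for library 1 and library 2 side by side, EAE was not compared with healthy mice, and there was no replicate and no test. Ratios compare these libraries and not the conditions. The 95% intervals are exact and reflect counting error alone.

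Cells build cholesterol from acetyl-CoA through mevalonate, squalene and lanosterol. When membrane sterol is low, the SREBP2 transcription factor leaves the endoplasmic reticulum and raises genes of synthesis and uptake, and INSIG proteins hold it back when sterol is plentiful. When oxysterols build up, the nuclear receptor LXR raises ABCA1, ABCG1 and apolipoprotein E, which carry cholesterol out of the cell. Microglia, the macrophages of the brain, take up myelin and membrane debris and pass on its cholesterol by this route.

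After the cell filter 3406 cells of library 1 and 1922 of library 2 remained, with medians of 7334 and 9782.5 UMIs per cell (molecular tags that count captured transcripts) and median mitochondrial shares of 1.54% and 3.74%. The libraries shared 8 barcode sequences, 7 of them among kept cells. Clusters formed without the sterol genes were named from marker genes, and microglia-like cells made up 92.7% of library 1 (3159 cells) and 89.3% of library 2 (1717 cells). The 8 microglia markers, P2ry12 among them, summed to 17623 and 9303 CPM (a gene's share of all UMIs of the cells, scaled to a total of 1000000). The 7 lymphatic endothelial markers summed to 28.3 and 6.90 CPM, with Mmrn1 and Reln at 0 in library 2. No cluster took the name of lymphatic endothelium, the labelled target. Cluster 9, of mixed markers, had 73 cells of library 1 and 104 of library 2. Its 50 highest folds held 1 lymphatic and 4 blood endothelial markers, beside red blood cell, fibroblast and bone markers. A list of 10 immediate early genes, such as Fos and Jun, summed to 46699 and 16380 CPM, and a list of 10 interferon response genes to 532 and 2855 CPM. Within the interferon list, Cxcl10 alone made 380 and 719 CPM (1.89-fold). The other 9 genes were 8.16-fold to 30.8-fold higher in library 2. The part of these differences in the values below was not tested.

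Levels of the synthesis enzymes were low, with ratios of library 2 over library 1 from 0.816 for Hmgcs1 to 1.38 for Idi1. Insig1 was moderately lower in library 2 (0.695), Abca1 was nearly level (1.05), and Abcg1 was moderately higher in library 2 (1.43). Of the 8 genes, 1 differed at least 2-fold in CPM between the libraries, Ch25h, against 22.6% of all 13891 genes with at least 20 UMIs. The median log2 ratio of library 2 over library 1, with a pseudocount of 10 CPM that damps the ratios of low genes, was 0.06 over the 8 genes and 0.02 over all genes tested. The log2 ratios of the 8 genes ran from -0.44 for Insig1 to 0.48 for Abcg1. The single call rested on 76 UMIs and was lost when the 2% of cells with most UMIs were left out, where the Ch25h fold was 1.98.

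**Figure D1:**
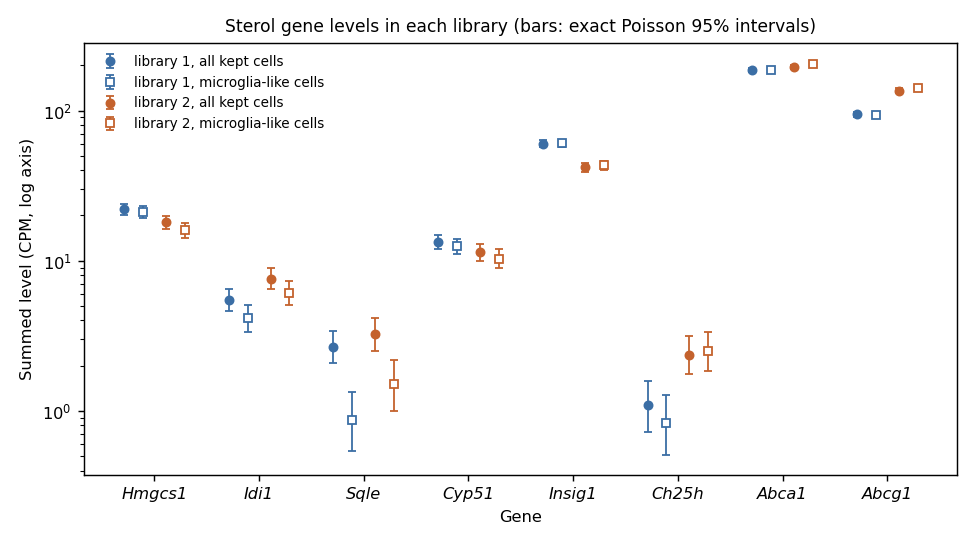
Summed level of each gene in CPM, on a log axis, in library 1 (blue) and library 2 (orange), for all kept cells (filled circles) and microglia-like cells (open squares), with exact Poisson 95% intervals. Insig1 is lower and Abcg1 higher in library 2, and the Sqle level falls when cells other than microglia-like cells are left out.

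Hmgcs1 (ENSMUSG00000093930) encodes a cytosolic synthase of the early mevalonate pathway. It had 568 UMIs in library 1, or 22.0 CPM (20.3 to 23.9), and 365 UMIs in library 2, or 18.0 CPM (16.2 to 19.9). The level in library 2 was 0.816 of that in library 1 (0.714 to 0.933), and the intervals of the 2 levels did not overlap. Idi1 (ENSMUSG00000058258), the isomerase that makes the activated isoprene unit of all isoprenoids, went the other way, with 142 UMIs at 5.51 CPM and 154 UMIs at 7.59 CPM, a ratio of 1.38 (1.09 to 1.74).

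Sqle (ENSMUSG00000022351) encodes squalene epoxidase, which adds oxygen to squalene and is a control point of the late pathway. Its 69 and 66 UMIs gave 2.68 CPM in library 1 (2.08 to 3.39) and 3.25 CPM in library 2 (2.52 to 4.14), and the interval of the ratio of 1.22 (0.854 to 1.73) held 1. This ratio was 1.99 without the 2% of cells with most UMIs and 3.83 with each cell thinned to 1000 UMIs. After thinning, only 5 cells of library 1 and 9 of library 2 held a Sqle UMI. Cyp51 (ENSMUSG00000001467), the demethylase of lanosterol, stood at 13.3 CPM (342 UMIs) and 11.4 CPM (232 UMIs), with a ratio of 0.862 whose interval also held 1 (0.726 to 1.02). These intervals do not show that the levels were equal, only that a difference was not detectable at these counts.

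Insig1 (ENSMUSG00000045294), the endoplasmic reticulum protein that retains SREBP2 and is itself an SREBP2 target, had the lowest ratio of the 8 genes. It stood at 60.1 CPM in library 1 (1549 UMIs; 57.2 to 63.2) and 41.8 CPM in library 2 (848 UMIs; 39.0 to 44.7). The level in library 2 was 0.695 of that in library 1 (0.639 to 0.757), and between 0.677 and 0.842 of it under all 11 alternative settings. A UMI of Insig1 was found in 31.4% and 31.1% of kept cells, and in 5.33% (4.59% to 6.15%) and 4.56% (3.67% to 5.60%) after every cell had been thinned to 1000 UMIs.

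The sequence before the annotated start of 4 of these genes is shown because they are classical SREBP2 targets. The enzymes among them were higher in ensheathing-like cells than in microglia-like cells, described below, and Insig1 was not separated from the microglia-like level there. The part of the motifs in those levels was not tested. Entries were found for 6 of the 8 genes, not for Sqle and Abcg1. Each window holds the 250 bases before the start, from RefSeq (GRCm38.p6): chr13:119690101-119690350 (plus strand) for Hmgcs1, chr13:8885356-8885605 (plus strand) for Idi1, chr5:4104698-4104947 (minus strand) for Cyp51 and chr5:28071162-28071411 (plus strand) for Insig1. Capitals mark the sterol regulatory element core TCACNCCAC, the CCAAT box CCAAT bound by NF-Y, and the GC box GGGCGG bound by Sp1, searched on both strands, with no overlaps between matches in these windows.
Hmgcs1: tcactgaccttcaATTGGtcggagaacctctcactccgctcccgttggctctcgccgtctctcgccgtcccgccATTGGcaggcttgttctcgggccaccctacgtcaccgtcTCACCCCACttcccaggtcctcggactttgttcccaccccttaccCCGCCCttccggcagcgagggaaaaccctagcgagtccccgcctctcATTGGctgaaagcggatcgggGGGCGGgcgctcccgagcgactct
Idi1: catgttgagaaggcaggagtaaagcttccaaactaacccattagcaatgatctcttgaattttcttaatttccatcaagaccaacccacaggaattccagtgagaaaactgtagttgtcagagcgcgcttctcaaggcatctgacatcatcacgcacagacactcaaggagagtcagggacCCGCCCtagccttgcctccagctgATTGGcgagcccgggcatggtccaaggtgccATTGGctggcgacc
Cyp51: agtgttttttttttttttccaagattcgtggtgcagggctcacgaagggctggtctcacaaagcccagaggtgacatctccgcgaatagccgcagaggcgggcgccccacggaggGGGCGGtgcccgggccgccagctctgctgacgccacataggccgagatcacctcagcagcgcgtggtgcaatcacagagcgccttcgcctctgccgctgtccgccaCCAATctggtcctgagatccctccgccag
Insig1: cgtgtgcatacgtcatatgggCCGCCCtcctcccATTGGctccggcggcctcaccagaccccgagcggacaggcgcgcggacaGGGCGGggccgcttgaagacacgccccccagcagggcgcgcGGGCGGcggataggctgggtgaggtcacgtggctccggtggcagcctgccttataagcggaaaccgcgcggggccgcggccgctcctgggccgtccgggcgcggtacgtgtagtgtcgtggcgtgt
The Hmgcs1 window held the sterol regulatory element core 1 time, with its first base 137 bases before the start, as did 1.05% of 32851 promoter windows of the same length. The core was not among the letters of the other 5 windows. A CCAAT box was present in all 4 windows shown and in 33.8% of all windows, and a GC box in all 4 and in 32.7% of all windows. The Abca1 window held 2 GC boxes and no CCAAT box, and the Ch25h window none of the motifs. These are matches of letters, not sites shown to be used.

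Most of the full synthesis pathway lay within 2-fold, as did its 4 members described above. Of the 21 enzyme genes, all had at least 20 UMIs, 19 lay within 2-fold, 2 were at least 2-fold higher in library 2 (background 14.2%) and 0 were at least 2-fold lower (background 8.37%). Their median log2 ratio was 0.06. Ebp, a late isomerase, stood at 94.7 and 93.8 CPM, and Msmo1, an oxidase that acts on sterol methyl groups, at 27.9 and 25.3 CPM. Pmvk, a kinase of the mevalonate branch, was among those past 2-fold (14.6 and 29.4 CPM, 2.01-fold). Of the 7 sterol sensing genes, 0 were past 2-fold, with a median of -0.00 and Srebf2, the gene of SREBP2, at 23.1 and 18.7 CPM.

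In the uptake, storage and apolipoprotein lists the genes past 2-fold were higher in library 2. Of all genes, 14.2% were at least 2-fold higher in library 2 and 8.37% at least 2-fold lower, and no test set the lists against them. In the uptake and lysosomal export list, 11 of 13 genes had at least 20 UMIs, 4 were at least 2-fold higher in library 2 and 0 lower, with a median of 0.18 against 0.02 over all genes. Among them were the scavenger receptor genes Cd36 (4.04 and 59.4 CPM) and Msr1 (2.95 and 14.6 CPM), and Vldlr, at 4 and 17 UMIs. Microglia-like cells held 0 of the Vldlr UMIs in each library, so this call rests on the few other cells. Npc2, which moves cholesterol out of lysosomes, stood at 738 and 1240 CPM, whereas Lrp1, a large endocytic receptor, was level at 171 and 166 CPM. Of the 12 genes of the LXR, efflux and storage list, 5 were at least 2-fold higher in library 2, 0 were at least 2-fold lower, and the median was 0.27. Apoe stood at 3852 and 23503 CPM, and Apoc1, a small apolipoprotein gene beside it, at 8.50 and 106 CPM. The cholesterol ester enzymes Soat1 (42.5 and 91.1 CPM), which forms esters, and Nceh1 (19.4 and 54.8 CPM), which splits them, and the lipid droplet coat gene Plin2 (55.4 and 111 CPM, at 2.005-fold just past the threshold) completed the 5. Lpcat3, a phospholipid remodelling enzyme and LXR target of the same list, went the other way, at 126 CPM in library 1 and 66.9 CPM in library 2 (1.88-fold higher in library 1). Of the 9 genes of the fatty acid list, 8 had at least 20 UMIs, 1 was past 2-fold (Scd1, a desaturase, at 28 and 49 UMIs), and the median was 0.18. Only 3 and 8 of the Scd1 UMIs lay in microglia-like cells.

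**Figure D2:**
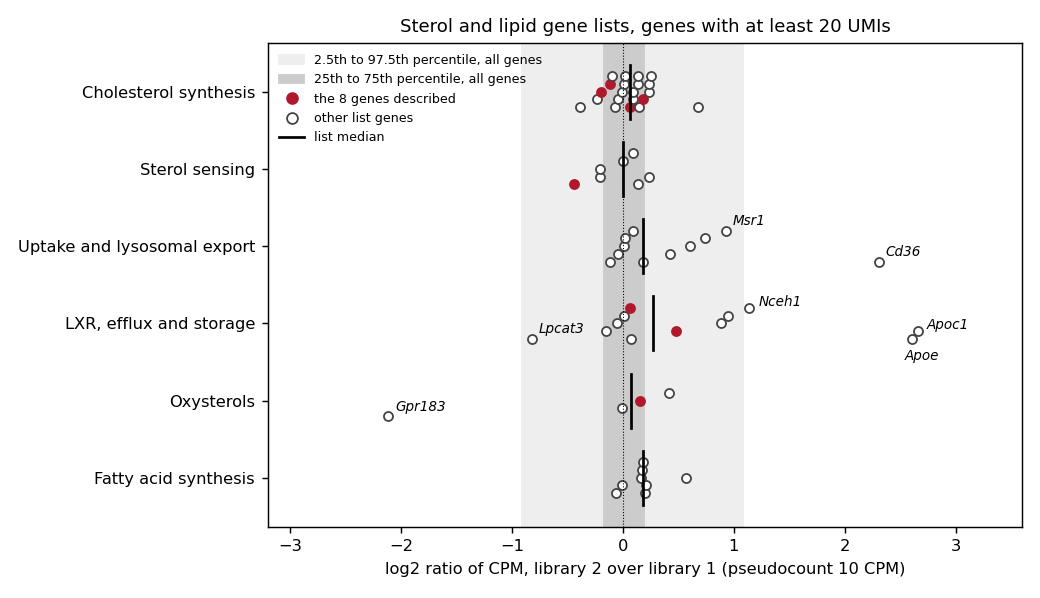
Log2 ratio of CPM, library 2 over library 1 with a pseudocount of 10 CPM, for each gene with at least 20 UMIs in 6 sterol and lipid lists, with the list medians (black bars) and the spread of all 13891 genes (grey bands). The 8 genes described (red) lie between -0.44 and 0.48, whereas Apoe, Apoc1 and Cd36 exceed 2 and Gpr183 is below -2.

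Abca1 (ENSMUSG00000015243), which loads cholesterol onto lipid-poor apolipoproteins, was nearly level between the libraries, beside the large difference of Apoe. It had 4776 UMIs in library 1, or 185 CPM (180 to 191), and 3936 UMIs in library 2, or 194 CPM (188 to 200), a ratio of 1.05 (1.003 to 1.09). Under the alternatives the ratio ran from 1.02 to 1.14. A UMI was found in 66.5% and 71.9% of kept cells, and in 16.3% (15.1% to 17.6%) and 17.2% (15.5% to 19.0%) at 1000 UMIs per cell.

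Abcg1 (ENSMUSG00000024030), which passes cholesterol to larger lipoprotein particles, had the highest log2 ratio of the 8 with the pseudocount of 10 CPM (0.48). Ch25h had the higher plain fold, and with a pseudocount of 1 CPM its log2 ratio was 0.69 against 0.51 for Abcg1. It stood at 94.7 CPM in library 1 (2440 UMIs; 91.0 to 98.5) and 136 CPM in library 2 (2750 UMIs; 131 to 141), a ratio of 1.43 (1.36 to 1.51). Its share of cells with a UMI was 43.2% and 61.3%, and 7.98% (7.08% to 8.96%) and 11.5% (10.1% to 13.1%) after thinning. The interval of the Abcg1 ratio lay above that of Abca1. Both genes are textbook LXR targets.

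Ch25h (ENSMUSG00000050370), which hydroxylates cholesterol to a secreted oxysterol that inhibits SREBP2 processing and is known as an interferon-induced gene, was rare. It had 28 UMIs in 17 cells of library 1, or 1.09 CPM (0.722 to 1.57), and 48 UMIs in 26 cells of library 2, or 2.37 CPM (1.74 to 3.14). The level in library 2 was 2.18-fold that in library 1 (1.34 to 3.61). In olfactory sensory neuron-like cells, a neuronal class taken as the background, 0 of 37 cells of library 2 held a UMI, which allows a share of up to 8.11%, with a median of 11227 UMIs a cell against 9915 in the microglia-like cells, of which 1.46% held one. The background share was therefore not measured finely enough to set against that of microglia-like cells. Gpr183, a receptor for oxysterols made from the product of Ch25h, was 6.10-fold higher in library 1 (116 and 18.9 CPM). Cyp27a1, which makes another oxysterol, stood at 14.98 and 23.3 CPM. Of the 6 oxysterol genes, 4 had at least 20 UMIs, 1 was at least 2-fold higher in library 2 (14.2% of all genes) and 1 at least 2-fold lower (8.37%), and the median was 0.07.

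Restricting the libraries to microglia-like cells left these directions unchanged for all 8 genes. Insig1 stood at 60.6 CPM in library 1 and 43.2 in library 2, Hmgcs1 at 21.2 and 16.0, Idi1 at 4.15 and 6.10, and Cyp51 at 12.4 and 10.3. Sqle stood at 0.870 and 1.499 CPM (ratio 1.72; 0.943 to 3.19). Abca1 stood at 187 and 203 CPM, and Abcg1 at 93.4 and 140 CPM (ratio 1.502; 1.42 to 1.59). Ch25h stood at 0.829 and 2.52 CPM (ratio 3.03; 1.76 to 5.41). Beside them, Apoe was 8.61-fold higher in library 2 in these cells, and Cd36 had 14 UMIs (0.580 CPM) in library 1 and 1131 UMIs (60.5 CPM) in library 2. Different clusters held most of the microglia-like cells of each library, clusters 1 to 6 in library 1 and clusters 10, 11, 12, 16 and 17 in library 2. Macrophage markers summed to 8.95 and 11.2 CPM and monocyte markers to 3.40 and 74.2 CPM in them, with Ly6c2 at 0 in library 1 and Cd163 at 0 in library 2, and their part in these values was not tested.

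Sqle was many-fold higher in the few neural and epithelial cells than in microglia-like cells. In nasal epithelium-like cells of library 1, Idi1 was higher too (4.39-fold; 1.84 to 8.98), but the ratios of Hmgcs1 (1.29; 0.661 to 2.27) and Cyp51 (1.46; 0.626 to 2.92) had intervals that held 1. In the 6 such cells of library 2 it was the Hmgcs1 ratio that lay above 1 (3.04; 1.11 to 6.69), while those of Idi1 (2.65; 0.318 to 9.81) and Cyp51 (3.14; 0.846 to 8.16) held 1. The library 1 cells had a median of 829.5 UMIs and microglia markers at 3830 CPM, whose part in these values was not tested. In library 1, Sqle stood at 0.870 CPM in microglia-like cells (0.539 to 1.33; 21 UMIs) and at 70.5 CPM in nasal epithelium-like cells (47.9 to 100.02; 31 UMIs in 14 of 64 cells), a ratio of 80.9 (45.0 to 148). In library 2 it stood at 1.499 CPM in microglia-like cells (0.996 to 2.17; 28 UMIs) and at 42.3 CPM in olfactory sensory neuron-like cells (25.9 to 65.4; 20 UMIs in 14 of 37 cells), a ratio of 28.3 (15.1 to 52.0). Only 30.4% of the Sqle UMIs of library 1 and 42.4% of those of library 2 lay in microglia-like cells, against 94.4% and 95.2% for Insig1. No class here is known to lack Sqle, so whether its few UMIs in microglia-like cells exceed free RNA could not be measured.

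Olfactory ensheathing-like cells, named for the glia that wrap olfactory axons, held more of all 4 synthesis enzymes than microglia-like cells in both libraries. Their Hmgcs1 levels were 74.5 CPM (library 1) and 70.7 CPM (library 2), or 3.52-fold (2.07 to 5.62) and 4.42-fold (3.03 to 6.26) the microglia-like level. Idi1 was 5.99-fold and 6.12-fold higher, Cyp51 2.996-fold and 3.61-fold, and Sqle 38.0-fold and 11.8-fold, each with an interval above 1. Insig1 (66.2 and 62.8 CPM) and Abca1 (224 and 192 CPM) had intervals that included the microglia-like level in both libraries. These barcodes also held the microglia markers, at 12825 CPM in library 1 and 6714 CPM in library 2, and the part of microglial RNA in their Insig1, Abca1 and Abcg1 values was not tested.

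Olfactory sensory neuron-like cells, whose microglia markers summed to 40.2 CPM in library 2, held the synthesis enzymes but no Abca1 or, in library 2, Insig1. In library 2 Hmgcs1 stood at 38.1 CPM (22.6 to 60.2), Idi1 at 29.6 CPM (16.2 to 49.7) and Cyp51 at 27.5 CPM (14.7 to 47.1), each above the interval of microglia-like cells. Abca1 and Insig1 each had 0 UMIs in 472400, which allows up to 6.35 CPM when 3 counts are taken as the limit. Against that limit Abca1 was at least 32.0-fold and Insig1 at least 6.80-fold higher in microglia-like cells. The 95% intervals of the neuron-like over microglia-like ratio are wider and reach 0.0385 for Abca1 and 0.181 for Insig1. Abcg1 was present at 78.3 CPM (55.1 to 108), 0.558 of the microglia-like level. In library 1 there were 7 such cells, with Idi1 at 155 CPM (15 UMIs in 3 cells), 1 UMI of Insig1 and 0 of Abca1. The whole enzyme list summed to 790 CPM in these cells of library 2, to 530 and 632 CPM in ensheathing-like cells and to between 289 and 416 CPM in the 11 microglia-like clusters.

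Macrophage-like cells, found in library 1 alone (53 cells, led by Pf4, Ms4a7 and Mrc1), had the highest levels of both transporters among the named classes of that library. Abca1 stood at 291 CPM (245 to 343) and Abcg1 at 170 CPM (135 to 211), 1.56-fold (1.31 to 1.84) and 1.82-fold (1.44 to 2.27) the level of microglia-like cells of that library. For Abca1 the interval met that of ensheathing-like cells (168 to 292), and for Abcg1 those of ensheathing-like (60.4 to 143) and nasal epithelium-like cells (84.4 to 150), so these neighbours in the order could not be separated by their counting error. Apoe stood at 54895 CPM in the macrophage-like cells. Ch25h had 7 UMIs there, at 14.3 CPM (5.77 to 29.5), but 6 of the 7 lay in 1 cell. Sqle had 0 UMIs, which allows up to 6.15 CPM.

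**Figure D3:**
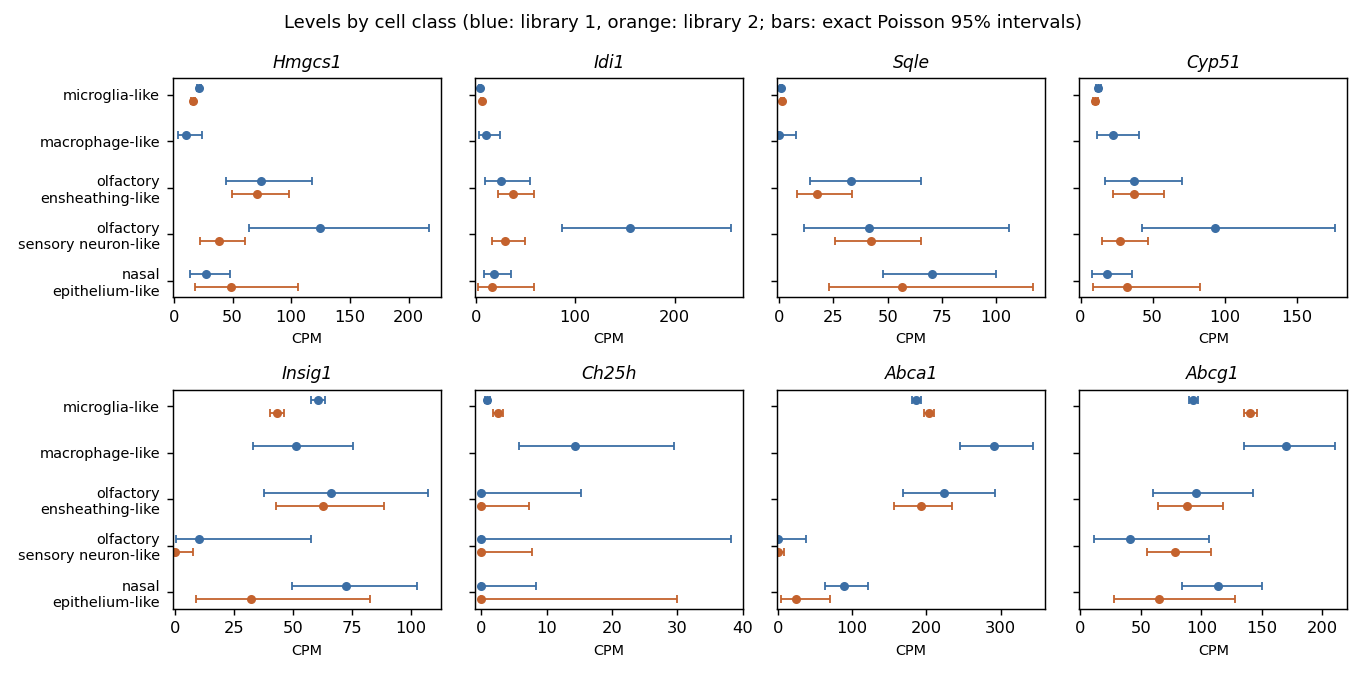
Level of each gene in CPM by cell class in library 1 (blue) and library 2 (orange), with exact Poisson 95% intervals. Sqle is higher in ensheathing-like, neuron-like and epithelium-like cells than in microglia-like cells, while Abca1 has 0 UMIs in neuron-like cells.

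Within microglia-like cells the transporters and the sterol sensor varied between clusters by up to 2.28-fold, more than their counting error. In library 1, cluster 1, whose leading genes included Hspa1b, Fcrls, Gpr34 and P2ry12 and which had the lowest sum of immediate early genes of that library's microglia-like clusters (31289 CPM), had the highest Abca1 (217 CPM; 200 to 235) and Abcg1 (120 CPM; 108 to 134) and the lowest Insig1 (36.6 CPM; 29.9 to 44.4). Cluster 6, led by Gdf15, Ccl3, Ccl4 and Atf3, had the highest Insig1 (78.4 CPM; 71.2 to 86.1) with Abca1 nearly as high (210 CPM; 199 to 223). Cluster 3, led by Gadd45b and Il1a, had the lowest Abcg1 (72.6 CPM; 66.3 to 79.4). In library 2, cluster 17, led by C4b and class II MHC genes, had the highest Abca1 (237 CPM; 217 to 258) and the lowest Insig1 (22.8 CPM; 16.9 to 30.1), and cluster 16, led by the same class II genes, had the highest Insig1 (52.0 CPM; 46.3 to 58.2). Abcg1 was highest in cluster 11, led by the interferon genes Ifit3 and Rsad2 (155 CPM; 142 to 169), and cluster 12, led by Cxcl9 and Ccl5 (153 CPM; 144 to 163), which did not differ beyond their intervals. In the order of the clusters of a library, 4 of 5 neighbours of Abcg1 in library 1 and 3 of 4 in library 2 had overlapping intervals, as did 5 of 5 and 3 of 4 for Abca1 and 5 of 5 and 3 of 4 for Insig1. Hmgcs1 ranged from 18.1 to 24.2 CPM over the clusters of library 1 and from 12.8 to 17.2 CPM over those of library 2, with all neighbours overlapping.

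The cluster of dividing cells (cluster 10, led by Mki67, Birc5 and Top2a) had less Abca1 than the other microglia-like cells in each library and less Abcg1 in library 2, while the Abcg1 intervals of library 1 overlapped. In library 2, with 88 such cells, Abca1 stood at 117 CPM (99.1 to 138) against 209 CPM (202 to 216) in the other microglia-like cells, and Abcg1 at 89.9 CPM (74.0 to 108) against 144 CPM (138 to 150). In library 1, with 25 such cells, Abca1 stood at 89.9 CPM (60.7 to 128) against 188 CPM (183 to 194), and Abcg1 at 71.9 CPM (46.1 to 107) against 93.7 CPM (89.8 to 97.7). In library 2, Sqle stood at 5.67 CPM (7 UMIs) against 1.20 CPM, with intervals that did not overlap (2.28 to 11.7 and 0.745 to 1.84), and the scavenger receptor gene Cd36 at 131 against 55.5 CPM. In library 1 Sqle had 0 UMIs in the dividing cells, which allows up to 8.99 CPM. The summed synthesis members (Hmgcs1, Idi1, Sqle, Cyp51 and Insig1) came to 89.1 CPM in dividing and 76.3 CPM in other cells of library 2, and to 92.9 CPM against 99.4 CPM in library 1, with overlapping intervals in both. The sensor gene Insig1, counted among them, gave most of their UMIs in microglia-like cells. It made 1463 of 2395 UMIs in library 1 and 807 of 1441 in library 2.

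**Figure D4:**
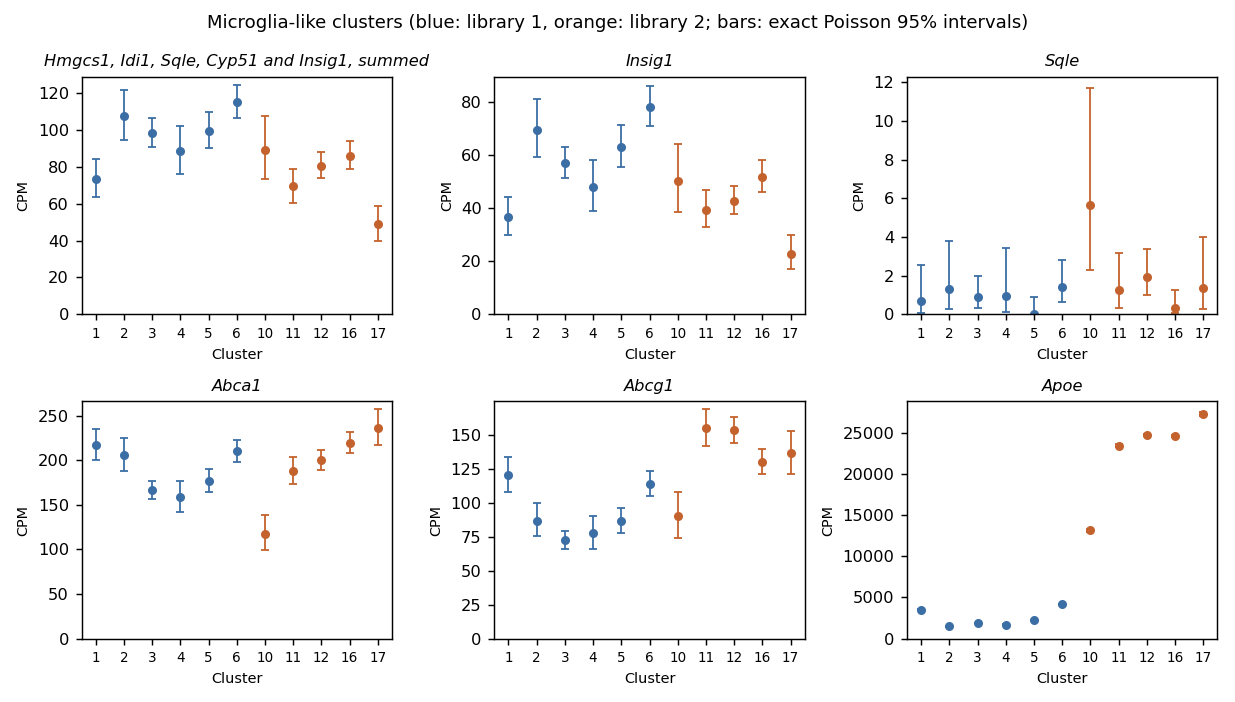
CPM of the summed synthesis members, Insig1, Sqle, Abca1, Abcg1 and Apoe in microglia-like clusters of at least 30 cells, 6 of library 1 (blue) and 5 of library 2 (orange), with exact Poisson 95% intervals. Cluster 10, of dividing cells, has the lowest Abca1 at 117 CPM, and the Apoe levels of the libraries do not overlap while those of Abca1 do.

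Over the 11 microglia-like clusters, after the mean of each library had been subtracted, levels as log2(CPM + 1) of Abca1 and Abcg1 varied together (Pearson r of 0.79), and Abcg1 and Abca1 varied with Apoe (0.85 and 0.70). Cyp51 varied with Srebf2 (0.78) and Insig1 (0.73). Hmgcs1, Idi1 and Sqle had lower r with Srebf2 (0.12, -0.10 and 0.27) and with Insig1 (0.07, 0.17 and 0.16). Hmgcs1 and Cyp51, both synthesis enzymes, did not vary together in these clusters (-0.07) but did over 18 units of all classes (0.77). A unit was 1 cluster in 1 library with at least 30 cells. Cluster 9, of mixed markers, and cluster 14, ensheathing-like, each entered once for each library. Over these units r was 0.46 for Abca1 with Abcg1, 0.57 for Abcg1 with Apoe and 0.84 for Abca1 with Apoe. For Cyp51 it was 0.69 with Srebf2 and -0.15 with Insig1. The points share libraries, clusters and the few UMIs of low genes, and these values are descriptions.

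The genes whose pattern over the 18 units was most like that of each gene were ranked, on log2(CPM + 10), among 9773 genes with at least 200 UMIs. For Abca1 they were Cd84, Fcgr2b, Alkbh2, Atp8a1 and Cd86, with r of 0.97 to 0.98, and over microglia-like clusters alone the r was 0.95 for Cd84, a receptor of leukocytes, and 0.49 to 0.77 for the other 4. For Abcg1 they were Os9, Cd22, Arhgap19, P2rx4 and Cnr2 (0.76 to 0.80), and over microglia-like clusters their r ran from 0.14 for Arhgap19 to 0.94 for the purinergic receptor gene P2rx4. For the summed synthesis members they were Mad1l1, Nme7, Acsl3, Pygb and Sc5d (0.86 to 0.87), with Sc5d itself a late enzyme of sterol synthesis and Acsl3 an activator of fatty acids. Over microglia-like clusters those 5 fell to between 0.04 and 0.55. For Ch25h they were Lilr4b, Pf4, Mrc1, Ms4a7 and Mdfic (0.85 to 0.92), among which Pf4, Mrc1 and Ms4a7 are markers of the macrophage-like cluster, and over microglia-like clusters Pf4 fell to 0.00.

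From cell to cell, the synthesis members were sparse in microglia-like cells, and the transporters were broad. Cells with several synthesis members were few, and the low share of each gene makes such cells few under independence too. At full depth 52.0% of microglia-like cells of library 1 and 49.2% of library 2 held no UMI of any of the 5 synthesis members, 38.1% and 37.8% held 1 of them, and 0 cells held all 5. Abca1 reached 14 UMIs in a cell of library 1 and 23 in a cell of library 2, and 18.4% and 34.5% of the cells held at least 3. Abcg1 was at 3 or more UMIs in 6.08% and 20.9% of cells. After thinning to 1000 UMIs, the variance over the mean of the count per cell was 1.02 and 1.05 for Abca1 and 1.08 and 1.10 for Abcg1. Independent counting gives 1, and Apoe had 14.1 and 24.1. The mean counts were 0.180 and 0.201 for Abca1, 0.0851 and 0.131 for Abcg1, and 2.57 and 24.7 for Apoe. Low means hold this value near 1 for most spreads, so it cannot compare the spread of the transporters with that of Apoe.

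Abca1 and Abcg1 were found in the same thinned cell more often than their separate shares would give. In library 1 this was 59 of 3151 cells where independence gives 40.9, a ratio of 1.44, and in library 2 it was 53 of 1714 cells where it gives 36.0, a ratio of 1.47. The clusters of each library differ in both genes, which also moves this ratio, and the part of that was not tested. For Insig1 and Abca1, which differ more in role, the numbers were 28 where independence gives 28.4 and 12 where it gives 15.2. Pairs of synthesis members had at most 3 such cells in either library, where independence gives at most 3.95, too few to describe.

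Ch25h was concentrated in few cells. In library 2 its 47 UMIs in microglia-like cells lay in 25 of 1717 cells, with 9 UMIs in the highest cell and 3 or more in 4 cells. Cluster 12 held 25 of these UMIs in 11 of its 479 cells, cluster 11 held 13 in 6 of 320, cluster 16 held 8 in 7 of 576, cluster 17 held 1 in 252 cells, and the dividing cluster 10 held 0 in 88. Clusters 11 and 12, with Ch25h at 4.005 and 4.01 CPM, had interferon response sums of 5119 and 3282 CPM against 1563 and 1781 CPM in clusters 17 and 16. Cluster 10 had an interferon sum of 3531 CPM but no Ch25h UMI, which allows up to 2.43 CPM. Ordered by Ch25h, 4 of 4 neighbouring microglia-like clusters of library 2 had overlapping intervals, as did 5 of 5 in library 1. These neighbours could not be separated by their counting error. The part of the interferon response in the Ch25h level was not tested. In library 1, 8 of 821 cells of cluster 3 held 11 of the 20 UMIs, and that cluster had the highest interferon sum of the library's 6 large microglia-like clusters, at 1038 CPM against 122 to 327 CPM in the others. A further 4 UMIs lay in 1 of the 5 cells of library 1 that joined cluster 12. Over all kept cells of library 1, Cxcl10 alone made 380 of the 532 CPM of the interferon sum. Its part in the sum of cluster 3 was not measured.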

How the data were processed

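Single-cell RNA counts of the 2 samples were analysed. The authors deposited unnormalised UMI counts in 1 matrix (47541728 UMIs, 6272 barcodes). Its software version was 3.1.0, per the file headers, which name no program; Cell Ranger, bcl2fastq and UMI-tools are named in the submitters' processing notes. The aligner settings, build and annotation were not given in the sources used here.

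From the counts, barcodes under 200 genes or over 20% mitochondrial UMIs were dropped (432 and 512), leaving 25766058 and 20282053 UMIs. The sort gated out doublets, per the series design, and no doublet caller was run, so some may remain, and leaving out the 2% of cells with most UMIs was an alternative. After 67 sterol and lipid genes had been set aside, cells were clustered with Scanpy 1.11.5 (Python 3.11.15, igraph 0.11.9) on 2000 variable genes, 30 components and 15 neighbours, with the Leiden method at resolution 1. Names needed 3 or more markers of 1 list within the 50 highest folds of the cluster; microglia-like needed 5 or more of 8 markers above 100 CPM; another list leading the 10 highest folds barred a name. Clusters with markers of several lists (177 cells) or of none (10 cells) are not described further, though the former entered the correlations over 18 units. UMIs were summed per library, class or cluster into CPM with Poisson intervals. Intervals of shares and ratios are binomial, and the level of 3 counts stands as the limit where none was seen. Cells under 1000 UMIs (87 and 15) were left out of thinned values. The ratio calculation was tested on simulated data. Named genes were the 8, the 4 highest and the 4 with the largest ratios of each list, Srebf2, Apoe and Gpr183, and the 5 most alike in pattern. Some genes that this rule names are not reported here. Vldlr, Plin2, Scd1 and the motifs are outside the rule and were picked with their values in view. The genes and lists were chosen with earlier results of these data known.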

Additional observations from a re-analysis of the deposited data

Results flagged for a closer look

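Barcodes that the cell filter left out, which enter no value above, also held the 8 genes. In library 1 the 432 such barcodes gave 66 UMIs of them, or 131 CPM (101 to 167), against 385 CPM in kept cells. In library 2 the 512 barcodes gave 160 UMIs, or 162 CPM (137 to 189), against 414 CPM in kept cells. Both sums exceed the 5.96 and 3.03 CPM that 3 counts would make.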

How the results depend on the processing

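The count of 1 of the 8 genes past 2-fold became 2 when each cell was thinned to 1000 UMIs (Ch25h at 5.22-fold and Sqle at 3.83-fold, with median log2 ratio 0.21) and 0 without the 2% of cells with most UMIs. The thinned folds rest on few cells, 2 in library 1 and 4 in library 2 with a Ch25h UMI, and 5 and 9 with a Sqle UMI. With thinning Cyp51 turned from 0.862 to 1.06. The share of all genes past 2-fold was 36.7% without a filter on low counts and 16.3% over genes with at least 100 UMIs. With a pseudocount of 1 CPM the list medians became 0.64 for uptake, 0.42 for LXR and storage, 0.27 for oxysterols and 0.37 for fatty acid genes, and counting every gene with a UMI raised the fatty acid genes past 2-fold from 1 to 2. The ratio of the highest to the lowest microglia-like cluster moved from 1.57 to 1.92 (resolution 2) for the summed synthesis members in library 1, from 1.83 to 1.17 (resolution 0.5) in library 2, and from 1.66 to 2.19 (resolution 2) for Abcg1 in library 1. At resolution 0.5 no cluster took the ensheathing-like name. Over the other alternatives the median of the 8 genes ran from 0.04 to 0.14. The synthesis enzyme median was 0.13 with a pseudocount of 1 CPM, and the oxysterol median 0.02 with every gene that had a UMI. Leaving out cells with shared barcode sequences, or the dividing cluster, was chosen after seeing the data and changed no direction of the 8 genes. With 1 library a side no replicate could be left out, and Ch25h and Sqle, at 76 and 135 UMIs in all, are limited by depth. No paired analysis was possible because each group is 1 sample.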
